A study of Mus musculus with 18 samples.

Results

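WT factor-dependent myeloid (FDM) cells deprived of IL-3 for 6 h were compared with the same clones growing in IL-3 (0 h). FDM cells are mouse myeloid cells transformed with HoxB8 that depend on IL-3 for survival and growth. RNA had been taken from 3 independent WT clones at each time and hybridized to Illumina MouseWG-6 V1 arrays, which measure each transcript with short bead-bound probes. The comparison therefore rests on 6 of the 18 arrays of the study, 3 at 6 h without IL-3 and 3 at 0 h with IL-3. All WT clones carried the HoxB8 transformation and intact p53, and were grown in DMEM with fetal calf serum. The 12 other arrays held WT cells at 18 h without IL-3 and p53-/- cells, 3 clones at each of 0, 6 and 18 h. The question was which genes had changed by 6 h, the earliest time sampled after the growth factor was removed. The order of changes within these 6 h was not measured. Arrays were paired by replicate number, which marks the clone, and values below are given in the order clone 1, clone 2, clone 3.

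IL-3 binds a receptor made of a specific alpha chain and the shared beta chain, and activates the kinase JAK2. JAK2 phosphorylates STAT5, a transcription factor that moves to the nucleus and switches on survival and feedback genes. The receptor also signals through Ras and ERK, which drive immediate early genes, and through PI3K and AKT, which hold FOXO factors in the cytoplasm and keep mTOR active. Together these routes maintain MYC, ribosome production and biosynthesis in growing myeloid cells. When the cytokine is removed, such cells are known to stop growing and later to die through the BCL-2 pathway.

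Of 46632 probes on each array, 18391 were detected (detection p under 0.01) on at least 1 of the 6 WT arrays and were tested. Between 31.47% and 32.59% of probes were detected on the arrays at 6 h, and between 30.9% and 31.88% at 0 h. The median raw intensity ran from 149.4 to 170.4 over the 6 arrays. Of the tested probes 14312 carried 1 gene symbol and stood for 9996 genes, each read from its brightest probe. Of the 3150 genes with more than 1 tested probe, 492 had probes that differed in call. Among genes named below, these include Ccnt2, Id2, Ccne1, Cdkn2c, Cdkn2d, Npc1, Kdm5b, Eif3b, Apaf1, Bcl2l1, Ddb2 and Prmt1. Levels are log2 normalized intensities, in which 1 unit is a doubling of signal. Across all genes the median log2 change was 0.019. Genotype was taken from the labels, since the probe for Trp53 carries no symbol here and was not analysed here.

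After 6 h without IL-3, 924 probes were higher and 1006 were lower than at 0 h, which is 5.02% and 5.47% of the probes tested. By gene, 506 rose (5.06%) and 607 fell (6.07%). A gene was called where limma gave an adjusted p of at most 0.1 and a log odds of change (the B statistic) above 0. The condition on B was the stricter one: 6638 probes had an adjusted p of 0.1 or lower, and 1930 were called. A gene given below as not called with an adjusted p under 0.1 therefore failed on B alone. All probes were fitted together in a linear model of all 18 arrays with the clone as a block and each array weighted by its reliability. Falls were larger than rises: 50 genes fell by 2 or more on the log2 scale and 339 by 1 or more, whereas 5 rose by 2 or more and 156 by 1 or more. The median log2 change was 0.87 among genes that rose and -1.06 among genes that fell. Of the 1113 called genes, 1110 moved the same way in all 3 clones, and in 978 the values at 6 h and 0 h did not overlap. Among all genes tested, 30.9% did not overlap. The calls rest on these same values, so both counts describe the called genes and are no separate support for them. These are bulk samples, so fewer cells of a type and less RNA per cell cannot be told apart.

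The number of calls depended on the fit, and more so for rises than for falls. Without array weights 162 probes rose and 372 fell, and in a paired fit of the 6 WT arrays alone 371 rose and 524 fell. With median scaling in place of quantile normalization 413 rose and 783 fell. Of the single arrays left out in turn, that of clone 2 at 0 h gave the lowest counts, 193 higher and 366 lower. Of the 1113 called genes, 321 were also called without array weights, 478 in the fit of the 6 arrays and 286 in both. Counts in these 2 fits (the other 2 fits below) are given in that order beside the groups of genes. The count of each group in the main fit is to be read beside the 5.06% of all genes that rose and the 6.07% that fell. Counts in the other 2 fits have a lower background. Of all 9996 genes, 85 rose and 236 fell without array weights, and 178 rose and 323 fell in the fit of the 6 arrays. Among the 6 WT arrays the weights ran from 0.509 for clone 3 at 0 h to 4.1 for clone 3 at 6 h (0.0544 to 4.41 over all 18), so the fitted log2 changes differ from plain differences of means.

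**Figure D1:**
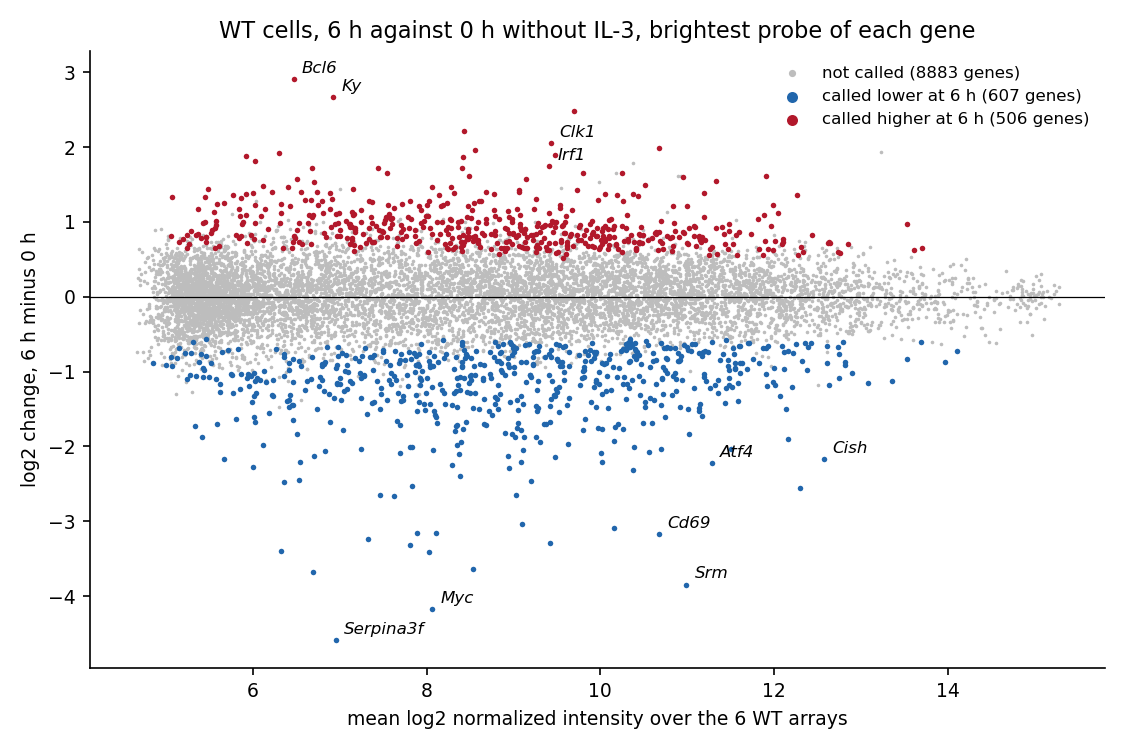
Log2 change (6 h minus 0 h without IL-3) of 9996 genes in WT cells against mean log2 normalized intensity over the 6 arrays, one point per gene, read from its brightest probe. The 607 genes called lower (blue) reach a change of -4.58, and the 506 called higher (red) reach 2.91.

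The 15 largest falls were led by Serpina3f, which encodes a serine protease inhibitor of the alpha-1-antichymotrypsin family. Its log2 level was 4.49, 4.63 and 4.82 at 6 h, against 8.85, 9.25 and 9.69 at 0 h. It was undetected on all 3 arrays at 6 h and so was at least 12.6-fold lower (log2 change -4.58, standard error 0.18, adjusted p = 1.08e-08). Myc, the transcription factor that drives growth and ribosome production, had levels of 5.86, 6.09 and 6.30 at 6 h, against 9.82, 10.48 and 9.82 at 0 h (log2 change -4.18, standard error 0.32, adjusted p = 1.54e-06). Srm, the spermidine synthase gene, had levels of 9.45, 8.62 and 9.29 at 6 h, against 12.73, 12.91 and 12.94 at 0 h (log2 change -3.84, standard error 0.20, adjusted p = 6.46e-08). For all 3 genes each value at 6 h lay below every value at 0 h. The size of such changes, and every bound given here, depended on the background correction. Without it the log2 change was -2.34 for Serpina3f and -2.71 for Myc, and on the deposited processed values -1.39 for Serpina3f and -1.90 for Myc, each still called. Cd69, an activation antigen of leukocytes, had levels of 8.79, 9.16 and 9.31 at 6 h, against 12.37, 12.44 and 11.95 at 0 h (log2 change -3.18, standard error 0.17, adjusted p = 9.22e-08).

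Lif and Osm, which encode cytokines of the IL-6 family, had log2 changes of -3.32 and -3.09. Klf2 and Egr3, zinc finger transcription factors, changed by -3.42 and -3.68. Egr3 was undetected at 6 h and so at least 6.99-fold lower, but its change varied between clones, at -1.25, -3.77 and -5.32, and it was not called in the fit of the 6 arrays. A second Egr3 probe was not called (log2 change 0.02). Dctd, which encodes deoxycytidylate deaminase of thymidine nucleotide synthesis, fell by 3.64 on the log2 scale with levels of 6.84, 6.35 and 7.22 at 6 h, against 10.13, 10.27 and 10.37 at 0 h. Trmt61a, a subunit of a tRNA methyltransferase, had levels of 7.76, 7.43 and 7.73 at 6 h, against 10.51, 10.71 and 10.45 at 0 h. The remaining members were Nrp1, a semaphorin and VEGF co-receptor (-3.29), Mfsd2a, a lysophospholipid transporter (-3.40), Fkbp11, a peptidyl-prolyl isomerase of the secretory pathway (-3.16), Socs3 (-3.16) and the uncharacterised 2010204K13Rik (-3.23).

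The largest rise was that of Bcl6, a transcriptional repressor. Its log2 level was 6.96, 7.73 and 9.49 at 6 h, against 4.50, 5.18 and 4.96 at 0 h, and it was undetected on all 3 arrays at 0 h. It was thus at least 5.33-fold higher (log2 change 2.91, standard error 0.37, adjusted p = 7.95e-05) with background correction. Without it the log2 change was 1.26, and on the deposited processed values it was 0.68 and not called. Clone 3 rose more (4.54) than clones 1 and 2 (2.47 and 2.56). Ky, named for the kyphoscoliosis mouse mutant, had levels of 8.51, 8.84 and 7.28 at 6 h, against 6.23, 5.73 and 4.94 at 0 h (log2 change 2.67, standard error 0.23, adjusted p = 4.04e-06). St6galnac3, a sialyltransferase, had levels of 10.69, 11.57 and 10.48 at 6 h, against 8.22, 9.04 and 8.21 at 0 h (log2 change 2.48, standard error 0.19, adjusted p = 1.56e-06). Second probes for Ky and St6galnac3 were near background and were not called.

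Further rises included genes of signaling and RNA processing. Clk1, a kinase that phosphorylates splicing factors of the SR family, had log2 levels of 10.57, 10.45 and 10.38 at 6 h, against 8.45, 8.31 and 8.44 at 0 h (log2 change 2.06, standard error 0.16, adjusted p = 1.54e-06). The 3 clones were close to each other, with changes of 2.12, 2.13 and 1.94. Acod1, which makes itaconate in activated myeloid cells, changed by 2.22. Clec2d, a C-type lectin ligand, changed by 1.99, and Crem, a cAMP-responsive transcription factor, by 1.89 on 1 of its 3 probes. Sphk1, the sphingosine kinase gene, had levels of 9.61, 10.55 and 8.19 at 6 h, against 7.64, 8.85 and 5.65 at 0 h (log2 change 1.86, standard error 0.25, adjusted p = 0.000127). Its groups overlapped, since the clones differed in level at both times, but each clone was higher at 6 h, and its other probes were dim and not called. The list was completed by Slc26a3, an anion exchanger (1.93), Spaca9 (1.96), Hs3st1, a heparan sulfate sulfotransferase (1.88), Acrbp (1.81), Irf1 (1.74), Tnfaip3, the NF-kB inhibitor A20 (1.72), and Ccnt2, a cyclin of the elongation kinase P-TEFb (1.72). Spaca9 and Tnfaip3 were not called without array weights.

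**Figure D2:**
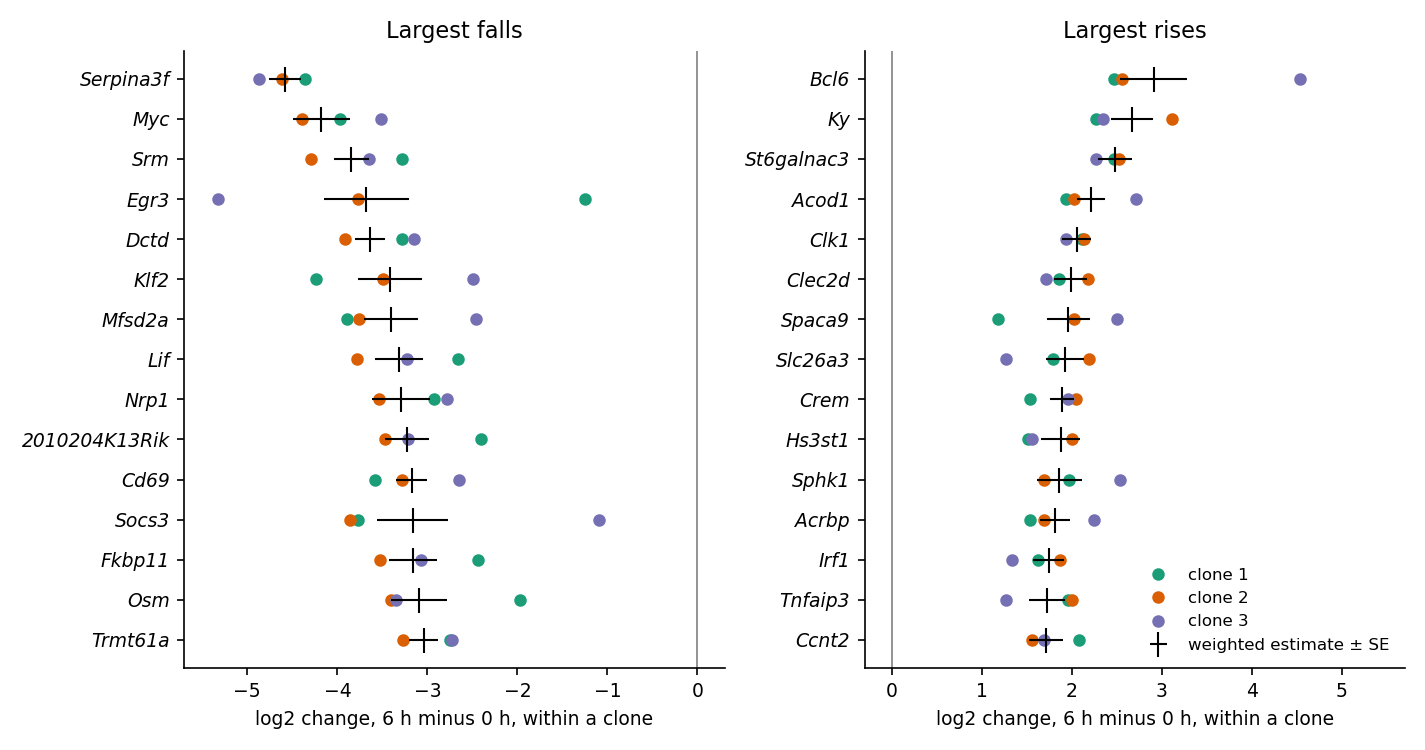
Log2 change (6 h minus 0 h) in each WT clone for the 15 largest falls (left) and 15 largest rises (right) among called genes; colored points are clones, black marks the weighted estimate with its standard error. All points of a gene lie on 1 side of 0 because genes were picked with the same sign in all 3 clones. Clone 3 stands apart for Bcl6 (4.54) and Socs3 (-1.10).

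Among genes that STAT5 and IL-3 are known to control, 13 of 22 tested fell and 1 rose, where 6.07% of all genes fell and 5.06% rose. The median log2 change of the 22 was -1.38. The list was chosen with earlier results of these data known, and it held the largest fall and the largest rise of the comparison. Its counts therefore describe the members and are no test of the set. Without array weights 9 fell and 1 rose, and in the fit of the 6 arrays 11 fell and 1 rose. Cish, which encodes the SH2 protein CIS that inhibits receptor signaling, had log2 levels of 11.39, 11.59 and 11.51 at 6 h, against 13.49, 13.77 and 13.69 at 0 h (log2 change -2.17, standard error 0.11, adjusted p = 5.49e-08). Its spread between clones was small beside the change. Socs3, a feedback inhibitor of JAK kinases, had levels of 5.65, 5.93 and 7.73 at 6 h, against 9.43, 9.79 and 8.82 at 0 h (log2 change -3.16, standard error 0.39, adjusted p = 6.76e-05). Clone 3 fell less than the other two, and the call was lost in the fit of the 6 arrays. Socs1, which also blocks JAKs, had levels of 8.14, 8.17 and 8.11 at 6 h, against 9.39, 9.32 and 8.79 at 0 h (log2 change -1.08, standard error 0.14, adjusted p = 8.73e-05), and Socs2 had 10.47, 10.65 and 10.51 at 6 h, against 11.38, 11.63 and 11.57 at 0 h (log2 change -0.99, adjusted p = 0.00732) and did not pass because its B statistic was not positive. Neither was called without array weights, and both were called lower in the fit of the 6 arrays.

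The 3 PIM kinases, serine/threonine kinases that promote survival, fell together. Pim1 had log2 levels of 7.75, 8.35 and 8.36 at 6 h, against 10.01, 9.95 and 9.85 at 0 h (log2 change -1.76, standard error 0.21, adjusted p = 4.62e-05), and this call was lost without array weights. Pim2 had levels of 7.003, 6.73 and 6.98 at 6 h, against 8.84, 8.95 and 8.51 at 0 h (log2 change -2.01, standard error 0.16, adjusted p = 1.96e-06). Pim3 had levels of 9.07, 8.91 and 9.37 at 6 h, against 10.79, 10.84 and 10.87 at 0 h (log2 change -1.75, standard error 0.12, adjusted p = 8.73e-07). In each PIM gene every clone at 6 h was below every clone at 0 h. Osm had levels of 9.18, 7.98 and 8.95 at 6 h, against 11.15, 11.39 and 12.29 at 0 h and Lif of 6.55, 6.21 and 5.83 at 6 h, against 9.22, 9.99 and 9.06 at 0 h, and the groups did not overlap in either. The 1 member that rose was Bcl6, a gene that STAT5 is known to repress in other cells and that the list of FOXO targets below also holds. Among members with no call, Ccnd2, the cyclin D2 gene, changed by -0.39 (adjusted p = 0.0518) and Id1, an inhibitor of basic helix-loop-helix factors, by -0.51 (adjusted p = 0.0234).

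**Figure D3:**
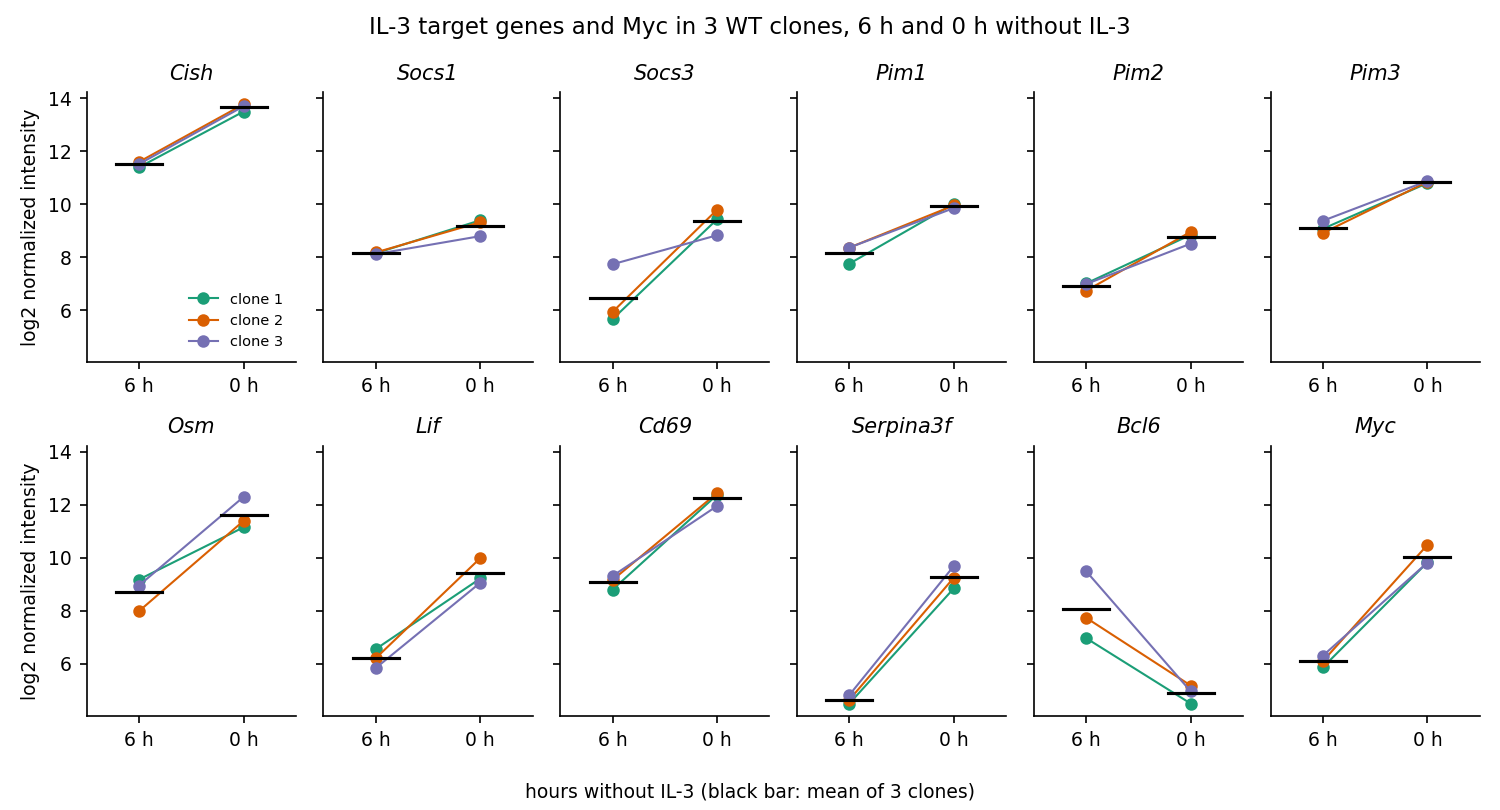
Log2 normalized intensity of 11 STAT5 and IL-3 target genes and Myc in the 3 WT clones at 6 h (left of each panel) and 0 h (right) without IL-3; lines join the arrays of a clone and black bars are means. Bcl6 is the only gene of the 12 higher at 6 h, where its levels were 6.96, 7.73 and 9.49.

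STAT dimers bind the palindrome TTCNNNGAA. Promoters were taken from RefSeq (build GRCm38.p6) as the 250 bases before each annotated start, and 16 of the 22 genes had one. The motif was found in 3 of the 16 genes (18.8%), and in 8.13% of the 27025 genes with a promoter in the table (7.02% of all 32851 windows of that length). Of the genes tested 7.6% held it, as did 8.54% of those that fell and 10% of those that rose. Across the other pathway lists the share ran from 0% in G2 and mitosis genes to 28.1% in interferon and antigen presentation genes. The list of STAT5 and IL-3 targets was chosen with earlier results known, so its share is a description. The 3 of the 16 genes were Serpina3f, Socs3 and Bcl6. Their sequences are shown because they carry the largest fall, a feedback gene and the largest rise. Irf1, one of the 15 largest rises, is shown with them. Each runs 5′ to 3′ on the strand of the gene and ends at the base before the start, with the motif in capitals. A match is a description of the letters, and binding was not measured.
Serpina3f (chr12:104214294-104214543, plus strand, 1 of 2 annotated starts): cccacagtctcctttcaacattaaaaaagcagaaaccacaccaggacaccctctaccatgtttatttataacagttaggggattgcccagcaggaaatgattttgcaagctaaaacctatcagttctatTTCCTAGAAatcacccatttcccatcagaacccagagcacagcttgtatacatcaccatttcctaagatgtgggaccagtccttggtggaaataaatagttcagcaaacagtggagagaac
Socs3 (chr11:117969367-117969616, minus strand): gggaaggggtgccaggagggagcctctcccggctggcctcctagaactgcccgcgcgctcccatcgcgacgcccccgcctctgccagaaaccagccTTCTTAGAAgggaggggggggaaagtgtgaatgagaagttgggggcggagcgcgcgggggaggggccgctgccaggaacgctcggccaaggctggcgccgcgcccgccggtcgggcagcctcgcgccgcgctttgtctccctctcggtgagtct
Bcl6 (chr16:23981284-23981533, minus strand, 1 of 2 annotated starts): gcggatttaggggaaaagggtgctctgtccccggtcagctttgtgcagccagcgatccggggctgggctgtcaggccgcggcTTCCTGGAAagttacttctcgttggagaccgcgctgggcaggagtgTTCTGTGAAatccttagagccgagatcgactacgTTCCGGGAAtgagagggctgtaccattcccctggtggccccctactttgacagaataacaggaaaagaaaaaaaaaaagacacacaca
Irf1 (chr11:53769764-53770013, plus strand, 1 of 2 annotated starts): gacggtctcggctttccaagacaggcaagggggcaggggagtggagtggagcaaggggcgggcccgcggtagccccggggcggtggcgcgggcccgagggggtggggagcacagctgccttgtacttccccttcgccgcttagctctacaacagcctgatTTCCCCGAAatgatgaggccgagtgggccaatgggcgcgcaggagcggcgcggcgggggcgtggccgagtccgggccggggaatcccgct
The Bcl6 window holds the motif 3 times, and the first bases of the copies lie 168, 122 and 88 bases before the start. The single copies begin 121 bases before the start in Serpina3f, 154 in Socs3 and 90 in Irf1.

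Of the immediate early and ERK feedback genes, 11 of 22 tested fell and 1 rose (median log2 change -0.84). Without array weights 6 fell, and in the fit of the 6 arrays 6 fell, with 1 higher in both. Egr1, an early growth response factor, had log2 levels of 11.97, 11.33 and 9.996 at 6 h, against 13.65, 13.66 and 13.18 at 0 h (log2 change -2.55, standard error 0.33, adjusted p = 8.89e-05). Fos, a subunit of AP-1, had levels of 7.91, 8.54 and 7.65 at 6 h, against 10.21, 10.57 and 10.33 at 0 h (log2 change -2.46, standard error 0.26, adjusted p = 1.69e-05). Dusp1, a phosphatase that inactivates MAP kinases, had levels of 10.92, 11.10 and 11.78 at 6 h, against 12.92, 13.02 and 13.20 at 0 h (log2 change -1.90, standard error 0.19, adjusted p = 1.43e-05), and Dusp2, a related nuclear phosphatase, had levels of 6.96, 7.55 and 8.45 at 6 h, against 8.30, 9.18 and 10.29 at 0 h (log2 change -1.67, standard error 0.17, adjusted p = 1.35e-05). Egr1, Fos and Dusp1 did not overlap between the times, whereas Dusp2 did, although each clone was lower at 6 h. Dusp6, a phosphatase specific for ERK, changed by -1.43 (adjusted p = 0.000361) and was not called without array weights. The 1 member that rose was Fosl2, another AP-1 subunit, with levels of 11.28, 11.66 and 11.44 at 6 h, against 10.11, 10.40 and 10.14 at 0 h (log2 change 1.21, standard error 0.13, adjusted p = 2.15e-05). A second Fosl2 probe was dim and changed by 0.17.

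In the network of MYC and its targets 14 of 26 genes fell and 2 rose (median log2 change -0.81). Without array weights 9 fell, and in the fit of the 6 arrays 9 fell and 1 rose. Beside Myc and Srm, the list held Gnl3, nucleostemin, with log2 levels of 10.86, 10.41 and 10.29 at 6 h, against 12.45, 12.52 and 12.49 at 0 h (log2 change -2.04, standard error 0.15, adjusted p = 1.54e-06). Shmt1 and Shmt2, the cytosolic and mitochondrial serine hydroxymethyltransferases that feed one-carbon units to biosynthesis, changed by -2.52 and -1.69. Shmt1 had levels of 6.87, 6.43 and 6.68 at 6 h, against 8.84, 9.19 and 8.97 at 0 h, with no overlap. Eif4a1, an RNA helicase of translation initiation, changed by -1.21. The 2 members that rose were Mxd1 and Mxd3, which encode partners of MAX that oppose MYC. Mxd1 changed by 0.91 (adjusted p = 0.000829) and Mxd3 by 1.11 (adjusted p = 0.0008). Neither was called without array weights, and Mxd1 but not Mxd3 was called in the fit of the 6 arrays. Cdk4, a kinase of G1 phase (-0.45), and Ncl, nucleolin (-0.35), were not called.

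The E-box CACGTG, which MYC and MAX bind, was found in the 250 bases before the start of 7 of the 22 genes of this list with a promoter (31.8%). It was found in 9.76% of the genes tested, in 13.6% of those that fell and in 10.8% of those that rose, against 6.86% of all genes and 6.02% of all windows. In the ribosome biogenesis list 3 of 55 genes held it (5.45%). Over the other pathway lists the share ran from 0% (IL-3 receptor, JAKs and STATs) to 30% (autophagy and lysosome). A high share was thus not particular to the MYC list.

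Of the 27 pathway lists, that of ribosome biogenesis had the most members that fell. Of 61 factors tested 43 fell and 0 rose (median log2 change -1.07, against 0.019 over all genes), where 6.07% of all genes fell. Without array weights 26 fell, and in the fit of the 6 arrays 33 fell. The median of plain within-clone changes was -0.96 in clone 1, -1.17 in clone 2 and -0.84 in clone 3. Nop56, a core protein of the box C/D ribonucleoprotein that methylates rRNA, had log2 levels of 9.09, 8.73 and 9.02 at 6 h, against 11.07, 11.11 and 11.08 at 0 h (log2 change -2.21, standard error 0.14, adjusted p = 4.79e-07). Ppan, a factor of the large subunit, had levels of 9.55, 9.37 and 9.75 at 6 h, against 11.61, 11.57 and 11.54 at 0 h (log2 change -2.07, standard error 0.14, adjusted p = 6.95e-07). Mrto4, which assembles the ribosomal stalk, changed by -1.77, and Rrp12, an export factor of preribosomes, by -1.83. The RNA polymerase I subunit genes Polr1a and Polr1b changed by -1.67 and -1.88, whereas Polr1c (0.29) and Polr1d (-0.31), subunits shared with RNA polymerase III, were not called.

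The structural proteins of the ribosome were counted apart from these assembly factors. Of 35 cytosolic ribosomal protein genes 1 fell and 0 rose, and their median log2 change was 0.04. Rpl26 had log2 levels of 14.87, 14.72 and 14.90 at 6 h, against 14.63, 14.45 and 14.41 at 0 h (log2 change 0.34, adjusted p = 0.0602) and Rps18 changed by 0.20. Every clone of Rpl26 at 6 h was above the clones at 0 h, but the gene did not pass the condition on B. The 1 gene called was Rps13, whose probe was dim and detected on 1 of 3 arrays at 6 h and 3 of 3 at 0 h, and it was not called without array weights or in the fit of the 6 arrays.

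Genes of translation and of its amino acid supply fell as well. Of 28 translation factors 10 fell and 0 rose (median log2 change -0.40), with 5 and 6 lower in the other 2 fits. Eif2b3, a subunit of the exchange factor that recycles eIF2, had levels of 8.89, 8.76 and 8.55 at 6 h, against 10.17, 10.19 and 9.96 at 0 h (log2 change -1.46, standard error 0.13, adjusted p = 3.66e-06). Eif3b, a scaffold subunit of eIF3, changed by -1.31, and Eif5a, the hypusine-bearing elongation factor, by -0.83, not called without array weights. Eef2, the translocation factor, was not called (0.14).

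Of 35 genes of the ATF4 response, amino acid supply and tRNA charging, 20 fell and 1 rose (median log2 change -0.77). In the other 2 fits 9 and 13 fell. Atf4 itself, the transcription factor of the amino acid response, had log2 levels of 10.21, 10.26 and 10.10 at 6 h, against 12.36, 12.49 and 12.27 at 0 h (log2 change -2.22, standard error 0.14, adjusted p = 4.28e-07). Phgdh, the first enzyme of serine synthesis, had levels of 6.53, 6.75 and 6.42 at 6 h, against 8.19, 8.03 and 7.59 at 0 h (log2 change -1.36, standard error 0.12, adjusted p = 4.85e-06). Slc1a4, a transporter of small neutral amino acids, changed by -2.08, Asns, asparagine synthetase, by -1.93, and Cars, the cysteinyl-tRNA synthetase, by -1.48. Asns and Cars were not called without array weights. The 1 member that rose was Ddit4, also called REDD1, an inhibitor of mTORC1, with levels of 9.45, 9.62 and 9.47 at 6 h, against 8.25, 8.35 and 7.55 at 0 h (log2 change 1.37, standard error 0.26, adjusted p = 0.00157), and it was not called without array weights. Ddit3, the CHOP gene, was not called (0.29, adjusted p = 0.159).

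In nucleotide and polyamine synthesis 14 of 33 genes fell and 0 rose (median log2 change -0.58), with 8 and 10 lower in the other 2 fits. Ctps, CTP synthase, had log2 levels of 9.89, 9.32 and 9.11 at 6 h, against 11.30, 11.50 and 11.19 at 0 h (log2 change -2.01, standard error 0.18, adjusted p = 4.85e-06). Mthfd1, a folate enzyme, changed by -1.98, and Gart, a trifunctional enzyme of purine synthesis, by -1.77. The ribonucleotide reductase subunits Rrm1 (0.16) and Rrm2 (-0.01) and thymidylate synthase Tyms (-0.08), which supply deoxynucleotides in S phase, were not called.

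In the list of import, mitochondrial ribosome and respiratory chain genes 13 of 43 fell and 0 rose (median log2 change -0.30), with 5 and 7 lower in the other 2 fits. Timm9, a chaperone of the intermembrane space, had levels of 10.58, 10.31 and 10.31 at 6 h, against 12.01, 11.88 and 11.91 at 0 h (log2 change -1.59, standard error 0.14, adjusted p = 3.79e-06). Timm8a1 changed by -1.74, Tomm40, the pore of the outer membrane, by -1.38, and Hspa9, the matrix HSP70, by -1.12. Tomm40 was not called in the fit of the 6 arrays and Timm8a1 was not called without array weights. The respiratory chain genes Cox4i1 (0.01), Atp5b (-0.13) and Ndufv1 (0.04) were not called, while Uqcrq of complex III was called lower (-1.06), though in neither of the other 2 fits. Among heat shock proteins and the cytosolic chaperonin 8 of 25 fell and 1 rose (median log2 change -0.51), with 4 and 5 lower in the other 2 fits. Cct3 and Cct6a, chaperonin subunits, changed by -1.14 and -0.98. Ern1, the IRE1 sensor of unfolded proteins, was the member that rose (1.28, adjusted p = 0.000609), and it was not called without array weights.

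In cholesterol and fatty acid synthesis 14 of 33 genes fell and 2 rose (median log2 change -0.42), and 7 and 11 fell in the other 2 fits. Hsd17b7, a reductase of the sterol pathway, had log2 levels of 8.32, 8.12 and 7.48 at 6 h, against 10.20, 10.36 and 10.03 at 0 h (log2 change -2.20, standard error 0.16, adjusted p = 1.26e-06). Sqle, squalene epoxidase, had levels of 11.10, 10.79 and 10.26 at 6 h, against 12.38, 12.28 and 11.79 at 0 h (log2 change -1.42, standard error 0.16, adjusted p = 2.60e-05). Insig1, a sterol sensor and target of SREBP, changed by -1.73, Mvd, which makes isopentenyl diphosphate, by -1.29, and the fatty acid elongase Elovl6 by -1.07. The genes that rose were Abcg1, a transporter that exports sterols (1.03, adjusted p = 0.00045), and Acss2, acetyl-CoA synthetase (0.71, adjusted p = 0.00149), the second of which was called in neither of the other 2 fits. In glycolysis and glucose uptake 1 of 27 genes rose and 2 fell (median log2 change -0.09), with 0 and 1 lower in the other 2 fits. Of all genes 5.06% rose and 6.07% fell. Rpe, an epimerase of the pentose phosphate pathway, had levels of 9.32, 9.15 and 9.14 at 6 h, against 7.91, 7.41 and 7.97 at 0 h (log2 change 1.61, standard error 0.18, adjusted p = 3.08e-05). Pfkp, platelet-type phosphofructokinase, changed by -1.08 and was not called without array weights. Slc2a1 (-0.03) and Hk2 (0.28), the glucose transporter and hexokinase genes, were not called.

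**Figure D4:**
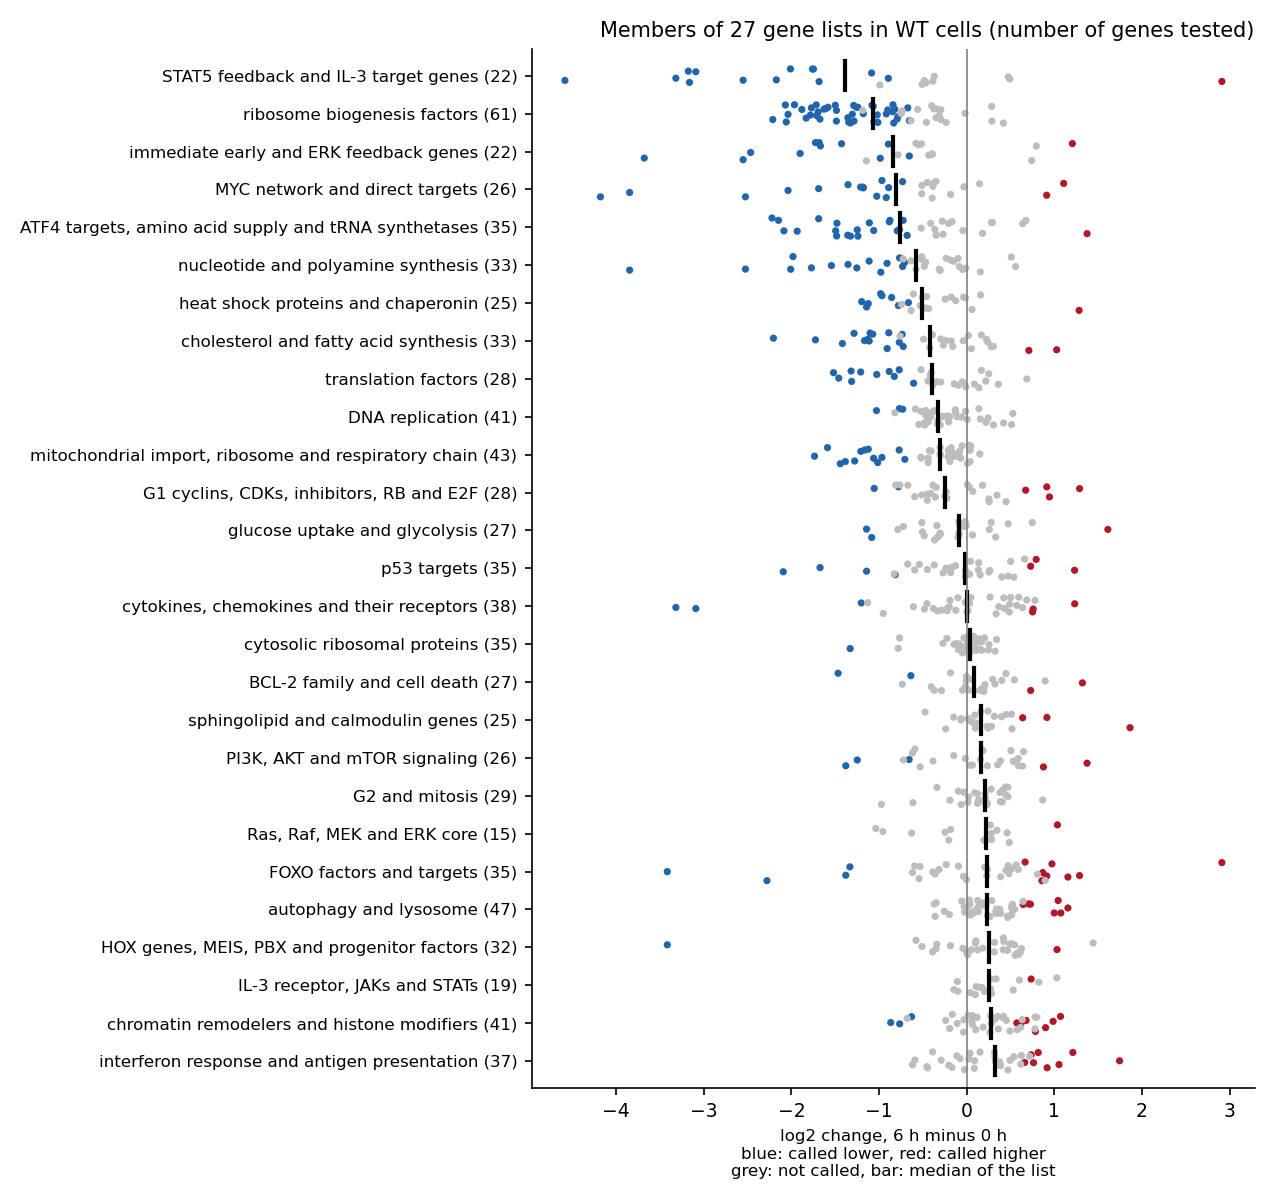
Log2 change (6 h minus 0 h) of the members of 27 gene lists in WT cells, one point per gene, with the number of genes tested in parentheses; blue and red points were called lower and higher, and bars are medians. The medians run from -1.38 for STAT5 and IL-3 target genes and -1.07 for ribosome biogenesis to 0.33 for interferon and antigen presentation genes, beside 0.019 for all genes.

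FOXO factors and their targets moved both ways. Of 35 genes 8 rose and 4 fell (median log2 change 0.24). Without array weights 1 rose and 3 fell, and in the fit of the 6 arrays 4 rose and 3 fell. Ccng2, a cyclin that slows the cell cycle, had log2 levels of 10.64, 10.61 and 10.55 at 6 h, against 9.59, 9.17 and 9.28 at 0 h (log2 change 1.29, standard error 0.18, adjusted p = 0.000189). Ulk1, the kinase that starts autophagy, had levels of 9.04, 9.15 and 9.08 at 6 h, against 8.23, 7.96 and 7.69 at 0 h (log2 change 1.16, standard error 0.17, adjusted p = 0.000274). Txnip, an inhibitor of thioredoxin and glucose uptake, changed by 0.97, Foxo1 by 0.67, and Cdkn1b, the inhibitor p27, by 0.91. The calls of all 5 were lost without array weights, and those of Foxo1 and Cdkn1b also in the fit of the 6 arrays. Bcl6, shared with the list of STAT5 and IL-3 targets, was the largest rise of this list (2.91). It was called in both other fits, though not on the deposited processed values. The 4 that fell were Klf2, Trib1, a pseudokinase (-2.28, undetected at 6 h and at least 2.8-fold lower, but -0.40 on the deposited processed values), Klf6, a zinc finger factor (-1.33), and Sgk1, the serum and glucocorticoid regulated kinase (-1.38, lost without array weights and in the fit of the 6 arrays). The FOXO motif GTAAACA, searched on both strands of the 250 bases before the start, was found in 3 of 28 genes of the list with a promoter (10.7%). It was found in 3.54% of all genes (3.17% of windows), in 3.83% of genes that rose and in 2.44% of those that fell. In the other pathway lists the share ran from 0% (cytosolic ribosomal proteins) to 16% (p53 targets), so it was not particular to the FOXO list.

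Of 27 genes of the BCL-2 family and cell death 2 rose and 2 fell (median log2 change 0.09), with 1 lower and 0 higher in both other fits. Among all genes 5.06% rose and 6.07% fell. Bcl2, an inhibitor of apoptosis, had log2 levels of 9.80, 10.46 and 10.18 at 6 h, against 11.52, 11.82 and 11.72 at 0 h (log2 change -1.47, standard error 0.16, adjusted p = 2.16e-05) on its brightest probe, and the groups did not overlap. Of its 6 probes 3 fell, by -1.15 to -1.47, and 3 were not called, with changes of -0.02 to 0.14. Bcl2l1, the BCL-XL gene, changed by -0.64 (adjusted p = 0.00251), and this call was lost without array weights and in the fit of the 6 arrays. Mcl1, a short-lived member that also protects cells, had levels of 12.58, 12.61 and 12.62 at 6 h, against 12.49, 12.46 and 12.24 at 0 h (log2 change 0.20, adjusted p = 0.371).

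Of the BH3-only genes, which encode triggers of apoptosis, Bmf rose, with log2 levels of 5.69, 6.37 and 7.31 at 6 h, against 5.03, 5.24 and 5.53 at 0 h (log2 change 1.32, standard error 0.22, adjusted p = 0.00065). It was undetected at 0 h and so at least 1.75-fold higher, but it was not called without array weights or in the fit of the 6 arrays. Bcl2l11, the BIM gene, had levels of 6.11, 6.63 and 7.43 at 6 h, against 5.98, 6.03 and 5.41 at 0 h (log2 change 0.90, standard error 0.26, adjusted p = 0.0215). Its groups did not overlap, but it was not called because its B statistic was not positive. Bbc3, the PUMA gene, had levels of 6.44, 6.12 and 6.19 at 6 h, against 6.47, 6.26 and 5.699 at 0 h (log2 change 0.00, adjusted p = 0.994), and Pmaip1, the NOXA gene, had 9.56, 10.22 and 9.70 at 6 h, against 10.15, 10.53 and 10.10 at 0 h (log2 change -0.37, adjusted p = 0.0834). The Bbc3 probe was dim, and the 2 probes of this gene differed in sign with neither called, so a change could be missed. Apaf1, the scaffold that activates caspase 9, changed by 0.73 and was called in neither of the other 2 fits. Ripk3, a kinase of necroptosis, was not called (-0.40, adjusted p = 0.041).

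Among p53 targets 3 of 35 rose and 4 fell (median log2 change -0.01), with 1 higher and 2 lower in each of the other 2 fits. For all genes the shares were 5.06% and 6.07%. Plk3, a stress-response kinase that is also an immediate early gene, had levels of 8.71, 9.19 and 9.07 at 6 h, against 10.73, 11.38 and 10.98 at 0 h (log2 change -2.09, standard error 0.13, adjusted p = 4.04e-07). Aen, an apoptosis-enhancing nuclease, changed by -1.67, and Trp53inp1, a nuclear regulator of autophagy and apoptosis, had levels of 9.995, 10.40 and 10.15 at 6 h, against 8.74, 9.09 and 8.88 at 0 h (log2 change 1.23, standard error 0.14, adjusted p = 3.31e-05). Ddb2, a damaged DNA binding protein, changed by 0.79 and was called in neither of those fits. Its 4 probes differed in call and in sign. Cdkn1a, the inhibitor p21, had log2 levels of 12.32, 11.90 and 11.11 at 6 h, against 12.57, 12.55 and 11.59 at 0 h (log2 change -0.59, standard error 0.26, adjusted p = 0.103). Each clone of Cdkn1a was lower at 6 h, but the groups overlapped. Mdm2, the ubiquitin ligase of p53, changed by 0.03 on its brightest probe.

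Cell cycle genes were taken by phase and read beside the 5.06% of all genes that rose and the 6.07% that fell. Of 28 genes of G1 control 4 rose and 2 fell (median log2 change -0.24). Ccne1, cyclin E1, changed by -1.05 and E2f1, a transcription factor of S phase entry, by -0.78, while the inhibitors Cdkn2c (0.94) and Cdkn2d (0.67) rose, as did Cdkn1b and Ccng2. Without array weights 0 rose and 1 fell, E2f1, and in the fit of the 6 arrays 1 rose, Ccng2, and 1 fell, Ccne1. In DNA replication 3 of 41 fell and 0 rose (median log2 change -0.33), with 1 lower in each of the other 2 fits. Pold2, a subunit of DNA polymerase delta, had levels of 10.82, 10.53 and 10.71 at 6 h, against 11.75, 11.72 and 11.60 at 0 h (log2 change -1.03, standard error 0.12, adjusted p = 3.58e-05). Of 29 genes of G2 and mitosis 0 were called (median log2 change 0.21), and Cdk1 (0.02) and Aurkb (-0.03), kinases of mitosis, were close to 0. Cenpe, a kinetochore motor, was the nearest to a call (log2 change 0.87, adjusted p = 0.00339).

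The components of IL-3 signaling were listed apart from its targets and read beside the 5.06% of all genes that rose and the 6.07% that fell. Of 19 genes for the receptor, JAKs and STATs 1 rose and 0 fell (median log2 change 0.25). The receptor alpha chain gene Il3ra had log2 levels of 11.999, 12.18 and 12.16 at 6 h, against 12.22, 12.26 and 12.21 at 0 h (log2 change -0.10, adjusted p = 0.541). Csf2rb2, the beta chain used by IL-3 alone in mice, had levels of 12.41, 12.28 and 11.69 at 6 h, against 11.52, 11.46 and 10.02 at 0 h (log2 change 1.03, adjusted p = 0.00549), higher in each clone but with no call. Stat2, a partner in interferon signaling, was the member called (0.74), in neither of the other 2 fits. In PI3K, AKT and mTOR signaling 2 of 26 rose and 3 fell (median log2 change 0.17). Rptor, the mTORC1 scaffold, changed by 0.88, Trib3, a pseudokinase that binds AKT, by -1.25, Pik3cd, a leukocyte PI3K subunit, by -0.66, and Pik3cg, another, by 0.39 with no call. Of the 5 calls 0 held without array weights and 1 in the fit of the 6 arrays. In the Ras, Raf, MEK and ERK core 1 of 15 rose, Rras, a Ras-related GTPase (1.04, adjusted p = 8.34e-05), which was not called in the fit of the 6 arrays.

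Autophagy and interferon genes held rises and 0 falls. In autophagy and lysosome genes 8 of 47 rose and 0 fell (median log2 change 0.24). Tecpr1 (1.00), Atg2a (1.07) and Atg14 (0.73), which act in the formation or fusion of autophagosomes, Npc1, a cholesterol exporter of the lysosome (1.04), and Ulk1 were among them. None of the 8 was called without array weights and 4 were called in the fit of the 6 arrays. In interferon response and antigen presentation genes 8 of 37 rose and 0 fell (median log2 change 0.33), with 2 and 4 higher in the other 2 fits. Irf1, the interferon regulatory factor, had log2 levels of 9.89, 10.17 and 10.59 at 6 h, against 8.27, 8.30 and 9.24 at 0 h (log2 change 1.74, standard error 0.17, adjusted p = 1.07e-05). A second Irf1 probe rose by 1.498 and 2 dim probes were not called. Ifngr1, a chain of the interferon gamma receptor, had levels of 12.36, 11.56 and 10.73 at 6 h, against 11.56, 10.13 and 9.65 at 0 h (log2 change 1.21, standard error 0.14, adjusted p = 4.77e-05), higher at 6 h in each clone. The interferon induced genes Rsad2 (0.54) and Irf7 (0.62) were not called. The motif TTCNNNGAA was found in 9 of 32 genes of this list with a promoter (28.1%), against 7.6% of genes tested.

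Of 38 cytokine, chemokine and receptor genes 3 rose and 3 fell, with 1 higher and 2 lower without array weights and 1 higher and 3 lower in the fit of the 6 arrays. For scale, 5.06% of all genes rose and 6.07% fell. Cxcr4, a chemokine receptor that retains progenitors in marrow, had log2 levels of 12.82, 12.61 and 12.29 at 6 h, against 11.72, 11.34 and 11.13 at 0 h (log2 change 1.23, standard error 0.12, adjusted p = 7.41e-06). Ccl6, a chemokine of myeloid cells, changed by -1.20, and the TGF-beta receptor gene Tgfbr1 by 0.75. Ccl6 was not called without array weights, and Tgfbr1 in neither of the other 2 fits. Of 41 chromatin genes 7 rose and 3 fell (median log2 change 0.28), among them Tet2, a DNA demethylase (1.07), Kdm5b, a histone demethylase (0.68), and Prmt1, an arginine methyltransferase (-0.87). None of these 10 was called without array weights, and 1 rose and 1 fell in the fit of the 6 arrays. A second Prmt1 probe had the opposite sign. Of 25 sphingolipid and calmodulin genes 3 rose and 0 fell. Beside Sphk1, Sgpl1, sphingosine phosphate lyase, changed by 0.92 and Sphk2 by 0.64. Of the 3, Sphk1 alone was called in the other 2 fits. Calm2 (0.02) and Calm3 (-0.06), which encode calmodulin, were not called. Of 32 HOX, progenitor and lineage factors 1 rose, Id2 (1.03), and 1 fell, Klf2. Gfi1 (0.13), Bcl11a (0.10) and Hoxb8 (-0.39) were not called.

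Lineage markers were checked in the same arrays. Most mast cell and basophil genes were bright. Fcer1a, the alpha chain of the IgE receptor, had log2 levels of 14.17, 14.43 and 14.10 at 6 h, against 14.13, 14.40 and 13.72 at 0 h, and Prss34, a basophil protease, of 15.07, 15.001 and 15.04 at 6 h, against 15.12, 14.89 and 14.75 at 0 h. Cma1, a mast cell chymase, was detected on 2 of 3 arrays at each time and was low in clone 3, with levels of 10.66, 10.34 and 5.34 at 6 h, against 9.80, 9.34 and 4.94 at 0 h. Of the 8 mast cell and basophil genes and 13 myeloid progenitor genes tested 0 were called. The clones differed from each other in lineage genes. The neutrophil gene S100a8 had levels of 4.44, 6.51 and 13.72 at 6 h, against 4.55, 5.50 and 13.42 at 0 h, high in clone 3 alone, and Gata1, an erythroid and mast cell factor, had levels of 9.83, 9.19 and 6.56 at 6 h, against 9.46, 8.64 and 6.06 at 0 h, low in clone 3. The summed normalized intensity of 8 neutrophil genes was 2164 to 43944 at 6 h and 1819 to 37266 at 0 h, with 0 of 8 called. Among 4 monocyte and macrophage genes 1 was called, Cx3cr1, a chemokine receptor, with levels of 4.65, 6.68 and 5.25 at 6 h, against 4.70, 4.63 and 4.54 at 0 h. It was detected at 6 h in clone 2 alone and was called in neither of the other 2 fits, and the sum of the 4 genes was 36502 to 43423 at 6 h and 28973 to 37036 at 0 h. Of 7 erythroid and megakaryocyte, 4 lymphoid and 3 stromal and epithelial genes 0 were called. In the lymphoid list Thy1, a surface glycoprotein of T cells and some progenitors, was bright, with levels of 14.22, 14.37 and 14.51 at 6 h, against 14.72, 14.89 and 14.86 at 0 h, while Cd79b, of the B cell receptor, was detected on 0 of 3 arrays at 6 h and 1 of 3 at 0 h. Whether a shift in cell types has a part in the changes above was not tested.

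The same change was read in the 3 p53-/- clones, which are separate samples. Of the 1113 genes called in WT cells 981 (88.1%) had the same sign in p53-/- cells, where 61.7% of all genes did, and 326 were called the same way. Serpina3f changed by -5.04 in p53-/- and -4.58 in WT cells. Cd69 changed by -4.03 in p53-/- and -3.18 in WT cells, and Cish by -2.12 in p53-/- and -2.17 in WT cells. For Cish the difference between genotypes was 0.05 (standard error 0.17, adjusted p = 0.877). Myc changed by -2.31 in p53-/- cells, with log2 levels of 7.35, 7.39 and 9.25 at 6 h, against 11.24, 10.57 and 10.89 at 0 h. Its difference from WT was 1.87 (adjusted p = 0.0336) and did not pass because its B statistic was not positive.

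The difference between the genotypes, tested as an interaction, was called for 225 genes (2.25%) and 448 probes. This count was 0 probes without array weights, without the replicate block or with median scaling, 0 without the p53-/- array of clone 3 at 6 h, and 1 and 8 without the p53-/- arrays of clone 1 and clone 3 at 0 h. At an unadjusted p under 0.05, 1802 probes differed without the block. Of the genes called in WT cells 124 had a called difference, and in 123 the change was smaller or opposite in p53-/- cells. These genes were selected on their WT values, which favors a larger change in WT. Srm had p53-/- levels of 11.09, 10.60 and 13.11 at 6 h, against 13.27, 13.01 and 14.56 at 0 h, a difference from WT of 2.12 (standard error 0.30, adjusted p = 0.00551, or 0.374 without array weights). Ky had p53-/- levels of 6.32, 5.51 and 4.92 at 6 h, against 5.42, 5.11 and 5.15 at 0 h, a difference of -2.55 (standard error 0.36, adjusted p = 0.00551, or 0.377 without array weights).

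**Figure D5:**
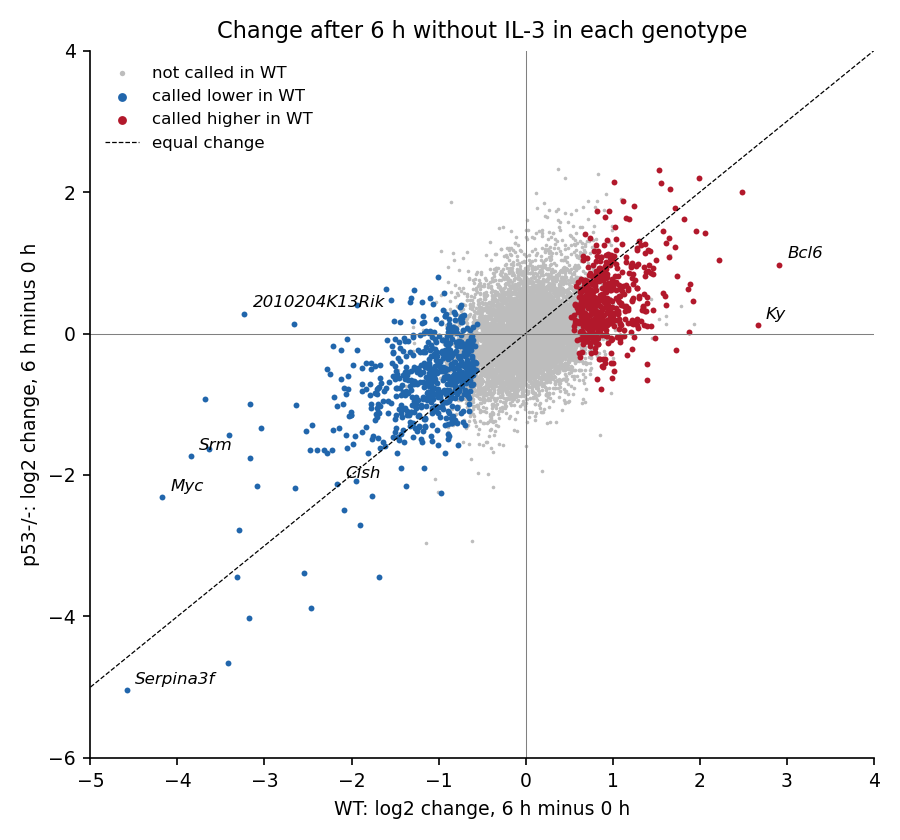
Log2 change (6 h minus 0 h without IL-3) in p53-/- clones (vertical axis) against that in WT clones (horizontal axis), one point per gene, with the genes called in WT in blue (lower) and red (higher). Of the 1113 colored points 981 lie on the same side of 0 in both genotypes, and Ky and 2010204K13Rik lie far from the line of equal change.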

How the data were processed

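Gene expression was measured in WT and p53-/- FDM cells at 0, 6 and 18 h without IL-3 (3 clones each, 18 arrays). The intensity of each probe was deposited by the authors averaged over beads and not normalized between arrays, and the software version is not given in the sources used here. The deposited detection score beside it, a fraction from 0 to 1 made by the authors' scanner software, equals 1 minus the detection p. The authors also deposited processed values on a log2 scale, made with the lumi package, which were used as an alternative only. There were 0 columns without a sample and 0 identical arrays. All 18 arrays were used, although the methods leave out 1 that they do not name.

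Background was corrected with normexp from the detection p-values (offset 16), followed by quantile normalization and log2, in limma 3.58.1 (R 4.3.3). Probes were kept where any of the 6 WT arrays at 6 h and 0 h had a detection p below 0.01. One linear model with the clone as a block and array weights was fitted to 18 arrays with lmFit and eBayes, with two-sided tests and Benjamini-Hochberg adjustment over all 18391 kept probes. Calls needed an adjusted p of 0.1 or lower and B above 0. Arrays with the same replicate number came from 1 clone: their deviations from group means correlated at 0.476 to 0.734 over 9 WT pairs, against -0.582 to 0.0987 over 18 pairs of different numbers. An exact permutation test of 3 against 3 arrays cannot go below p = 0.1 (0.25 over 3 pairs), so few arrays limit the precision.

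Of all probes 29976 carried 1 symbol, 10 several and 16646 none, and 29921 were matched to RefSeq by gene ID. Named genes are the 15 called genes with the largest change in each direction and the same sign in all clones, up to 5 members of each of 34 lists with the smallest p, genes the study names, and members that did not pass. Dusp6, Mxd1, Mxd3, Polr1a, Polr1b, Asns, Ern1, Abcg1, Acss2, Txnip, Foxo1, Cdkn1b and Uqcrq were named after their values were seen. The members and lists were chosen with earlier results of these data known. A probe undetected on all arrays of a group gives a bound, the bright mean against the higher of its own signal and the lowest signal of a detected probe on each array. The procedure was also run on simulated data in which 100 probes were given a known change. It recovered 45 of these 100 when the change was 1 log2 unit, and 92 when it was 2 units. At either size 11 probes without a change were called, among 18391 run. Changes of 1 unit were thus often missed in the simulation. Figures were drawn with Python 3.11.15 and matplotlib 3.10.9. Slides were not taken into account.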

Additional observations from a re-analysis of the deposited data

Results flagged for a closer look

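These genes were picked out from the named genes because the test of the difference itself found unequal changes in the 2 genotypes. They are part of the 225 genes with such a call. Named genes were mostly chosen on their WT values, which favors a larger change in WT. Values are the p53-/- change minus the WT change on the log2 scale, and all rest on the weighted fit with the clone block. The same test called 0 probes without array weights and 0 without the block. Genes that fell in WT and less, or not, in p53-/- cells had positive differences: 2010204K13Rik 3.51, Fkbp11 2.17, Srm 2.12, Dctd 2.01, Trmt61a 1.71, Timm9 1.495, Rrp12 1.42, Hsd17b7 1.31, Mrto4 1.27, Gnl3 1.26, Ppan 1.21, Mrps18b 1.19, Shmt1 1.15 and Shmt2 0.93. Rps13 (1.78), Rpl38 (1.66) and Ube2c (2.15) were dim or not called in WT cells.

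Genes that rose in WT and less, or not, in p53-/- cells had negative differences: Ky -2.55, Tnfaip3 -1.95, Hs3st1 -1.85, Slc26a3 -1.46, Tecpr1 -1.41, Sgpl1 -1.33, Ifngr1 -1.19, Crem -1.18, Acod1 -1.17 and Fosl2 -1.06. Itga2b (-0.98) was not called in WT cells. Pmaip1 had a difference of -1.79, with p53-/- log2 levels of 8.49, 8.22 and 7.69 at 6 h, against 11.27, 10.02 and 9.69 at 0 h, and WT levels of 9.56, 10.22 and 9.70 at 6 h, against 10.15, 10.53 and 10.10 at 0 h. For 2010204K13Rik the p53-/- levels were 8.16, 7.96 and 9.85 at 6 h, against 7.57, 9.65 and 9.31 at 0 h, which overlap, and the WT levels were 6.39, 6.10 and 4.94 at 6 h, against 8.79, 9.58 and 8.15 at 0 h, which do not. Groups of 3 were too small to test for single arrays that stand apart, and no cause of these differences was tested.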

How the results depend on the processing

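For the probes that rose (924), median scaling gave 413, no array weights 162, no replicate block 553, the 6 WT arrays with the replicate block 371, the same without weights (chosen after seeing the data) 263, and an adjusted p under 0.05 with no condition on B 2642. Leaving out single arrays gave 193 to 1060, with 412 and 489 without clone 1 and clone 3 at 0 h, and 394 and 614 without clone 2 and clone 3 at 6 h. For the probes that fell (1006), no array weights gave 372, the 6 WT arrays with the replicate block 524, the same without weights 423, and the adjusted p under 0.05 2487. Single arrays left out gave 366 to 1143, with 645 and 623 without clone 1 and clone 3 at 0 h and 605 without clone 2 at 6 h. Without the replicate block 825 fell. Median scaling left 783 falls, so that rises were a smaller part of the calls than with quantile scaling.

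For the difference between genotypes (448 probes), no background correction gave 781, an offset of 50 729, no filter 48, the 12 arrays at 6 h and 0 h with the replicate block 245, and the adjusted p under 0.05 1734. The count was 0 with median scaling, without array weights and without the replicate block. Single arrays left out gave 0 to 701. It was 109, 185 and 217 without WT clone 2 at 0 h, clone 3 at 0 h and clone 2 at 6 h, and 8 and 131 without p53-/- clone 3 at 0 h and clone 1 at 6 h. Among the genes named by the rules above, no called gene changed direction under any alternative run. The other called genes were not checked for this. At an adjusted p under 0.05 with no condition on B, 2642 probes rose and 2487 fell, against 924 and 1006 in the main fit. Some genes with no call changed sign, among them Bcl11a (log2 change -0.13 to 0.85), Calm2 (-0.18 to 0.56) and Mcl1 (-0.04 to 0.27). Log2 changes shrank without background correction and on the deposited processed values, where Bcl6 was 0.68 and not called. Of 850 list medians recomputed 725 moved by less than 1 SD of the clones, and every median of a list beyond 0.5 kept its sign. The cause of these shifts was not tested. Dim signals near background and bright signals near the top of the scale limit what the arrays can show.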
